A study of Bos taurus with 14 samples.

Results

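The genes described here carry glucose units from stored glycogen to lactate in skeletal muscle. In pathway order they are *PYGM*, *PGM1*, *HK2*, *PFKM*, *ALDOA*, *GAPDH*, *ENO3*, *PKM*, *LDHA* and *LDHB*. These 10 genes were listed by name and not ranked by a measured value, although earlier results of these data were known. Each was read from the probe sets whose single gene symbol in the array annotation is that gene. A probe set is a group of short oligonucleotide probes that are read together, and it may read more than 1 transcript. Of the 10 genes, 9 had a probe set, among 9155 genes with a single symbol on the array. *HK2*, which encodes the main hexokinase of insulin-responsive muscle, was found neither by symbol nor by gene identifier or accession and is not analysed here. The 9 measured genes have 14 of the 24016 probe sets, and *PGM1*, *PFKM* and *LDHA* have more than 1. Each gene is given by its probe set with the highest mean signal, and the other 5 probe sets serve as a check.

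The outdoor/pasture-fed group consisted of Charolais × Limousin crossbred heifers that grazed a ryegrass, meadow grass and white clover pasture. The indoor/concentrate-fed group consisted of heifers of the same cross that were housed permanently and received a barley and beet pulp concentrate with barley straw. *M. longissimus dorsi* (LD) muscle was taken within 20 min postmortem from 7 animals of each group and hybridised to Affymetrix Bovine arrays, 1 array per animal. Diet and housing differed together between the groups and cannot be told apart, and animals of 1 group shared pens or grazing groups, so that p-values treat as independent animals that may not be.

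In muscle, glycogen phosphorylase releases glucose 1-phosphate from glycogen, and phosphoglucomutase turns it into glucose 6-phosphate, which enters glycolysis after the step that hexokinase carries out on blood glucose. Phosphofructokinase, aldolase, glyceraldehyde 3-phosphate dehydrogenase, enolase and pyruvate kinase then yield pyruvate, and lactate dehydrogenase interconverts pyruvate and lactate. After slaughter the supply of oxygen ends and this route turns muscle glycogen into lactate, which lowers the pH of the meat. Fast glycolytic fibres are rich in these enzymes, while the LDHB subunit is the form typical of oxidative fibres and heart.

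The values are log2 expression values that the authors obtained with FARMS, a factor analysis that summarises the probes of a probe set. FARMS returns almost the same value on every array where it finds no shared signal. A probe set is called varying where its standard deviation (SD) over all arrays exceeds 0.01, as for 9623 of them. All differences are in log2 units with the concentrate mean subtracted from the pasture mean, so that a positive one is higher at pasture. The array medians lay between 6.77 and 6.84, and pairs of arrays correlated at 0.952 to 0.990 (Pearson's r over the varying probe sets). The array labels name no batch. Of 10 markers that define skeletal muscle, 7 were found by symbol, at means of 13.004 to 14.41, and markers of red blood cells lay near the bottom of the scale, with list means of 5.67 to 5.81 on the pasture arrays and 5.70 to 5.83 on the concentrate arrays. RNA was taken from whole muscle, so that fewer cells or fibres of a type and less RNA per cell cannot be told apart.

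The genes of glycogen use and glycolysis had a very bright signal in both groups. At the brightest probe sets 5 of the 9 measured genes varied and could be compared, and none of these 5 differed between the cattle at pasture and those on concentrate at the threshold. The other 4 were constant over the arrays and carry no difference to test. The mean signals of the 9 measured genes ran from 12.18 (*LDHB*) to 14.22 (*ENO3*), and between 0.00833% and 2.37% of all probe sets were brighter. Such signals describe the probe sets and do not rank the transcripts by abundance. Of the 5 varying genes, 0 passed an adjusted p of 0.05 in limma (Benjamini-Hochberg over all probe sets), and 0 had an unadjusted p under 0.05. Over all probe sets, 4 of 24016 (0.0167%) passed the adjusted and 2743 (11.4%) the unadjusted threshold. Among the varying probe sets alone, where 33 (0.343%) passed the adjusted threshold, the count of these genes was also 0. At the unadjusted threshold, 9.23% of the varying probe sets were higher and 10.7% lower at pasture. The 5 genes are *PYGM*, *PGM1*, *PKM*, *LDHA* and *LDHB*, with 1 value higher and 4 lower at pasture. The median difference of these 5 was -0.0055, against -0.0077 over all varying probe sets.

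**Figure D1:**
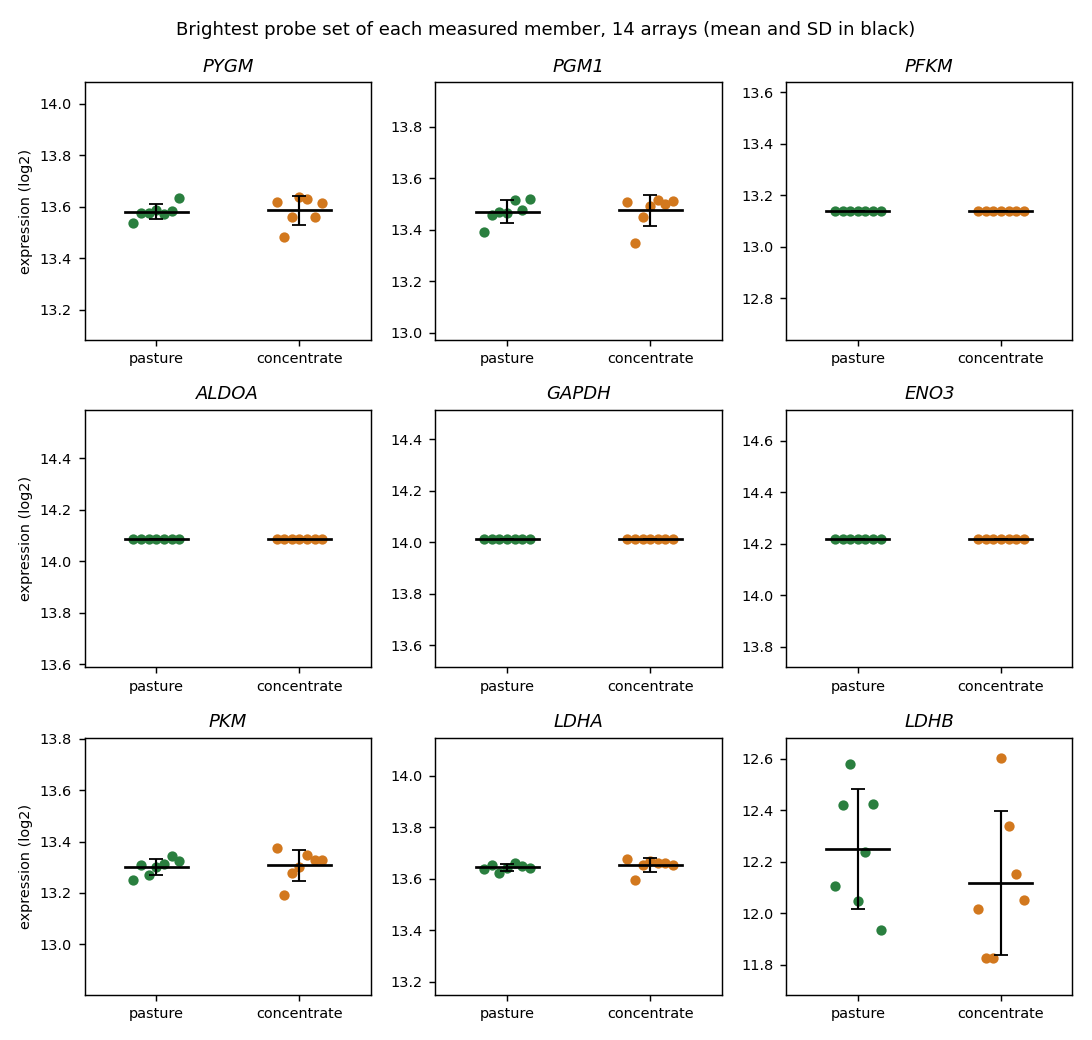
Log2 expression (vertical axes, each spanning 1 log2 unit) of the brightest probe set of the 9 measured genes on the outdoor/pasture-fed arrays (green, left) and the indoor/concentrate-fed arrays (orange, right), 1 point per animal, n = 7 each, with black bars for the mean and whiskers for the SD. Both groups overlap for every gene, *LDHB* has the widest spread, and *PFKM*, *ALDOA*, *GAPDH* and *ENO3* have the same value on every array to within 4.22e-05.

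*PYGM* encodes the muscle form of glycogen phosphorylase, whose loss causes McArdle disease in humans. Its lowest, median and highest values were 13.54, 13.58 and 13.63 on the pasture arrays, against 13.48, 13.61 and 13.64 on the concentrate arrays. All pasture values lay inside the range of the concentrate arrays. The means were 13.58 ± 0.03 at pasture, against 13.59 ± 0.06 on concentrate (SD, n = 7 each), and the difference was -0.0055 (SE 0.0234, adjusted p = 0.956 from limma, two-sided exact permutation p = 0.819). Its 95% confidence interval corresponds to a change of -3.84% to 3.20%. On the scale of the deposited values, the interval is therefore narrow around 0.

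*PGM1*, the phosphoglucomutase that links glycogen to glucose 6-phosphate, had lowest, median and highest values of 13.39, 13.47 and 13.52 at pasture, against 13.35, 13.50 and 13.51 on concentrate. Both groups have 1 low array, and their upper values nearly coincide. The difference was -0.0040 (SE 0.0278, adjusted p = 0.976 from limma, two-sided exact permutation p = 0.875). Its second probe set, at 11.15 ± 0.15 at pasture, against 11.09 ± 0.28 on concentrate (SD, n = 7 each), gave a difference of the other sign, 0.06 (SE 0.12, adjusted p = 0.906 from limma). The values of the 2 probe sets moved together over the 14 arrays (r = 0.78 after the group means were removed, as a description), while the SD of the dimmer one was 4.33 times as large.

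The middle of the pathway could not be compared at the brightest probe sets. *PFKM*, the muscle phosphofructokinase that catalyses the committed step of glycolysis, read 13.14 on every array. The aldolase *ALDOA* read 14.09, *GAPDH*, which oxidises the triose phosphate, 14.01, and the muscle enolase *ENO3* 14.22, and the highest and lowest array of each of these 4 genes lay within 4.22e-05 of each other. A constant value of this kind shows that the summary returned no array differences, and gives no measure of how far the transcript changed. *ENO3* is close to the top of the table, where the brightest value of any probe set on any array is 14.44.

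*PFKM* could still be read at its other probe sets. The second, at 12.996 ± 0.04 at pasture, against 12.998 ± 0.06 on concentrate (SD, n = 7 each), differed by -0.0020 (SE 0.0278, adjusted p = 0.989 from limma). The third, at 11.41 ± 0.14 at pasture, against 11.46 ± 0.17 on concentrate (SD, n = 7 each), differed by -0.04 (SE 0.08, adjusted p = 0.891 from limma). These 2 probe sets ranked the arrays alike (r = 0.92 after the group means were removed, Spearman's rho = 0.87), and again the dimmer one spread more, by 2.96 times. The groups overlapped in both.

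*PKM*, the pyruvate kinase gene, whose M1 and M2 splice forms this probe set is not known to separate, had lowest, median and highest values of 13.25, 13.31 and 13.34 at pasture, against 13.19, 13.33 and 13.37 on concentrate. The pasture arrays again lay within the range of the concentrate arrays. The difference was -0.0055 (SE 0.0251, adjusted p = 0.960 from limma, two-sided exact permutation p = 0.837), with a 95% confidence interval that corresponds to -4.08% to 3.46%.

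**Figure D2:**
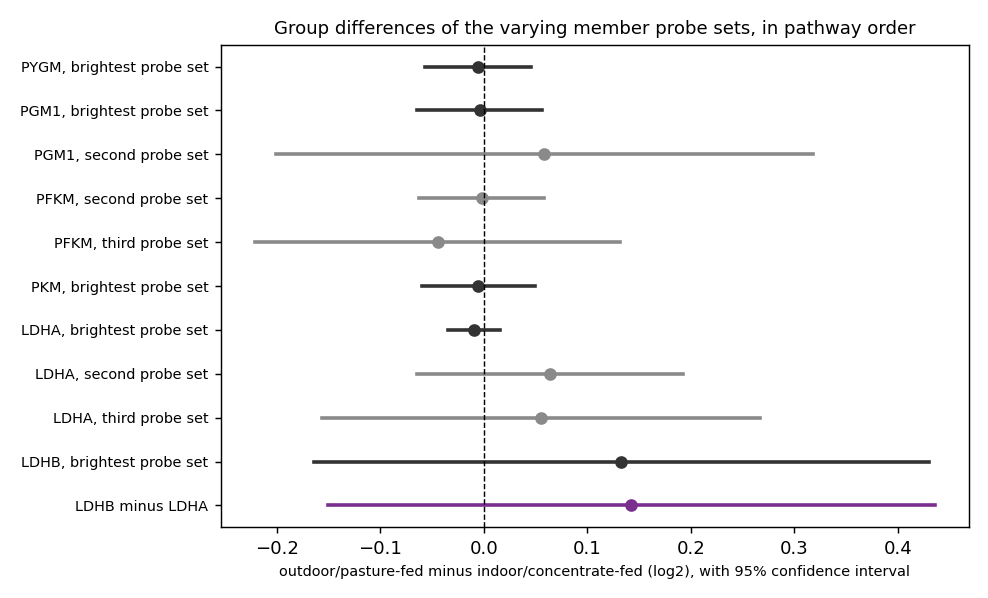
Difference between cattle at pasture and on concentrate (horizontal axis, log2, pasture minus concentrate, n = 7 each) with its 95% confidence interval from limma for the 10 varying probe sets of the pathway, in pathway order, with brightest probe sets in black, others in grey, and the per-array difference LDHB minus LDHA in purple, whose interval comes from the arrays of that difference alone. Every interval includes 0, from the narrowest (*LDHA*, brightest) to those of *LDHB* and of LDHB minus LDHA.

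Lactate dehydrogenase is built from subunits of *LDHA*, the form of fast muscle, and *LDHB*, the form of oxidative tissue. *LDHA* was almost level across the arrays, with lowest, median and highest values of 13.62, 13.64 and 13.66 at pasture, against 13.59, 13.66 and 13.68 on concentrate. Of the 7 pasture arrays, 1 lay above the concentrate median. The difference was -0.0095 (SE 0.0114, adjusted p = 0.818 from limma, two-sided exact permutation p = 0.446). Indoor/concentrate-fed replicate 2, at 13.59, decides this value. Without it the difference was -0.0195, with a two-sided exact permutation p of 0.00816 and an adjusted p of 0.326 from limma. The array left out is the lowest one, picked after the values were seen, so that this exact p is not a valid test of the groups. The other *LDHA* probe sets had positive differences. The second, at 10.49 ± 0.12 at pasture, against 10.43 ± 0.10 on concentrate (SD, n = 7 each), differed by 0.06 (SE 0.06), and the third, at 10.48 ± 0.18 at pasture, against 10.42 ± 0.19 on concentrate (SD, n = 7 each), also by 0.06 (SE 0.10). Without indoor/concentrate-fed replicate 2 the second differed by 0.06 (exact permutation p = 0.337), while the third differed by 0.0022 (exact permutation p = 0.981). Unlike those of *PFKM*, the *LDHA* probe sets did not rank the arrays alike, with r of -0.33 to 0.51 between them after the group means were removed.

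At its brightest probe set *LDHB* was the dimmest and the most variable of the genes, with an SD of 0.26 over the 14 arrays against 0.02 for *LDHA*. Its lowest, median and highest values were 11.93, 12.24 and 12.58 at pasture, against 11.82, 12.05 and 12.60 on concentrate. The highest array of all was indoor/concentrate-fed replicate 4, and the 2 lowest were indoor/concentrate-fed replicates 2 and 3, at 11.83 and 11.82. The means were 12.25 ± 0.23 at pasture, against 12.12 ± 0.28 on concentrate (SD, n = 7 each). *LDHB* was thus higher by 0.13 at pasture (SE 0.14, adjusted p = 0.778 from limma, two-sided exact permutation p = 0.346). This is a change of 9.66%, with a 95% confidence interval of -10.8% to 34.7%. The interval of the difference in log2 units includes a difference of this size in either direction.

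To compare the subunits, *LDHA* was subtracted from *LDHB* on each array, and only the change of this value between the groups was tested. LDHB minus LDHA was -1.39 ± 0.24 at pasture, against -1.54 ± 0.27 on concentrate (SD, n = 7 each). The ranges were -1.71 to -1.04 at pasture and -1.83 to -1.07 on concentrate, and they overlapped almost completely. The difference of 0.14 (SE 0.13, 95% confidence interval -0.15 to 0.44) had a two-sided exact permutation p of 0.306, where the smallest p the design allows is 0.000583. Since *LDHA* hardly varied at its brightest probe set, this difference largely repeats that of *LDHB*. With the second and the third *LDHA* probe sets it was 0.07 (exact permutation p = 0.661) and 0.08 (exact permutation p = 0.641).

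Among varying probe sets, the spread was smallest at the brightest signals, where most of these genes lie. Below a mean of 7, where most probe sets of the array lie, 12.2% of 12762 varied, with a median SD of 0.19. Of the 195 probe sets with a mean of 13 or more, 57.4% varied, with a median SD of 0.06 and a median absolute difference between the groups of 0.03. Of the 1536 between 11 and 13, 78.1% varied, with a median SD of 0.14 and a median absolute difference of 0.08. Over all varying probe sets the median SD was 0.18 and the median absolute difference 0.10. *PYGM*, *PGM1*, *PKM* and *LDHA*, with SDs of 0.02 to 0.05, lie in the top brightness class, and *LDHB* lies in the next. Whether the array or the summary compresses differences at such signals was not tested.

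**Figure D3:**
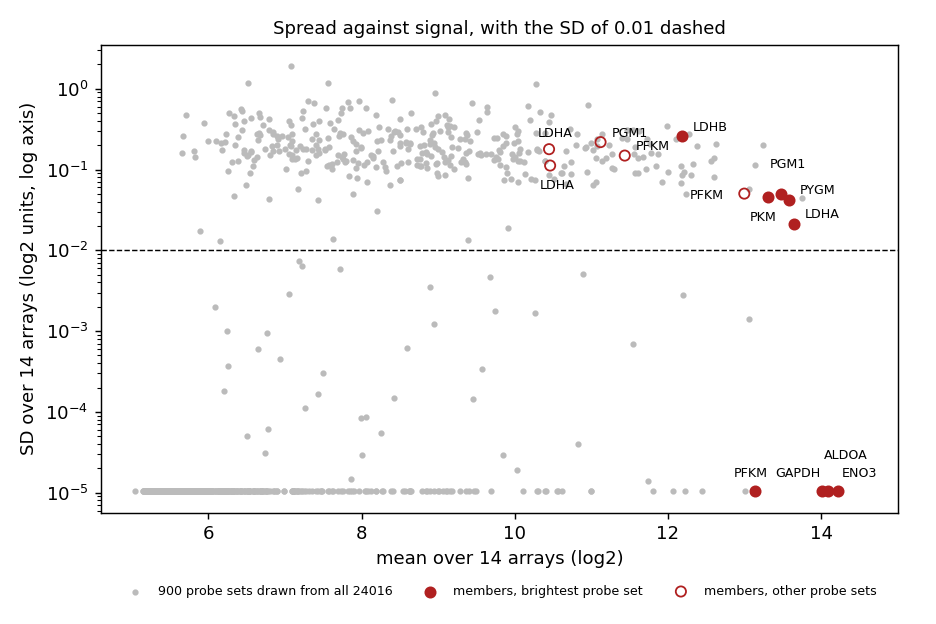
SD over the 14 arrays (vertical axis, log2 units on a log axis) against the mean over the 14 arrays (horizontal axis, log2) for 900 probe sets drawn at random from the 24016 (grey), the brightest probe sets of the 9 genes (red, filled) and their other probe sets (red, open), with the SD of 0.01 that separates varying from constant probe sets dashed. *PYGM*, *PGM1*, *PKM* and *LDHA* lie at high signal and small spread, and the dimmer probe sets of *PGM1* and *LDHA* spread more. *PFKM*, *ALDOA*, *GAPDH* and *ENO3* lie on the line of constant values.

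*PYGM*, *PGM1*, *PKM* and *LDHA* shared their lowest array, while their highest arrays differed in part. Indoor/concentrate-fed replicate 2 had the lowest value of all 14 arrays for *PYGM*, *PGM1*, *PKM* and *LDHA*, and outdoor/pasture-fed replicate 1 was the lowest of its group for *PYGM*, *PGM1* and *PKM*. Indoor/concentrate-fed replicate 1 was highest of all for *PKM* and *LDHA*, indoor/concentrate-fed replicate 4 for *PYGM*, and outdoor/pasture-fed replicate 7 for *PGM1*. After the group means were removed, the 6 pairs among *PYGM*, *PGM1*, *PKM* and *LDHA* had Pearson's r of 0.72 to 0.88 over the 14 arrays. In a family of 12 relations, 5 of these 6 pairs passed an adjusted p of 0.05 for r and 1 for Spearman's rho (permutation within groups). The closest pair was *PGM1* and *PKM*, with r = 0.88 (permutation p = 0.000650, adjusted p = 0.0071) and rho = 0.76 (permutation p = 0.0031, adjusted p = 0.0371). Without the 2 arrays farthest from the median of *PGM1* the r of this pair was 0.61. The same step on the first gene of each pair, in pathway order, left r of 0.25 (*PYGM* and *LDHA*) to 0.73 (*PYGM* and *PGM1*). Without indoor/concentrate-fed replicate 2 the 6 pairs had r of 0.26 to 0.73, so that the relation rests in part on that array. The 4 pairs with *LDHB* had r of 0.26 to 0.39, and 0 of them passed for r or rho.

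**Figure D4:**
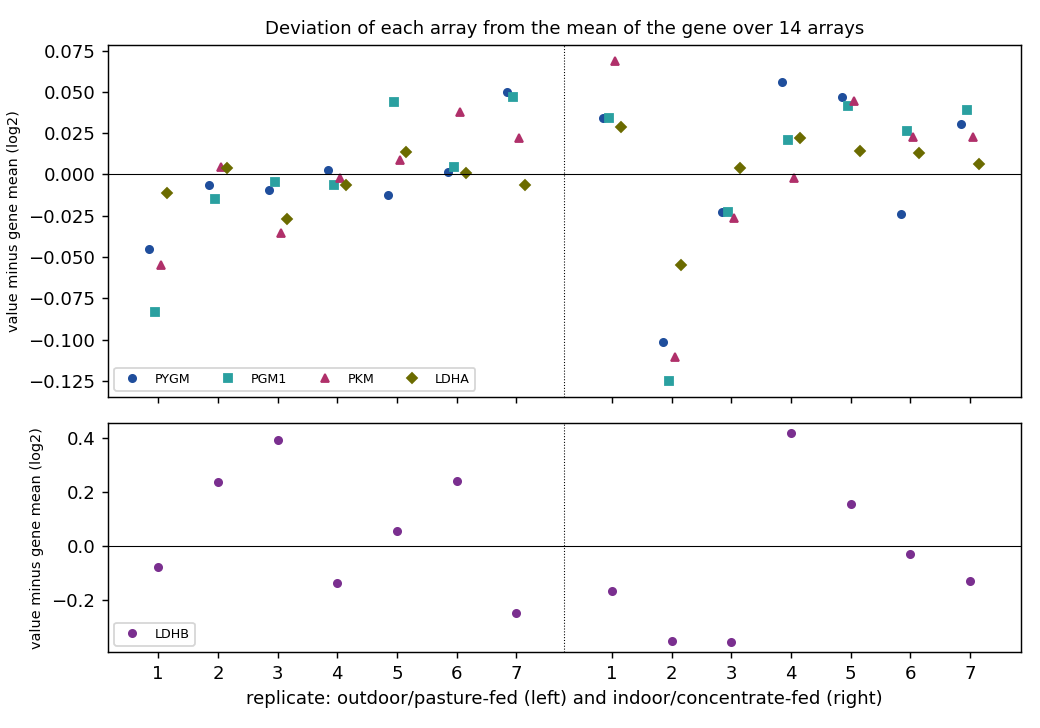
Log2 value minus the mean of the gene over the 14 arrays (vertical axes, with a wider scale in the lower panel) for *PYGM*, *PGM1*, *PKM* and *LDHA* (upper panel) and *LDHB* (lower panel) on each array, by replicate number (horizontal axis), outdoor/pasture-fed on the left and indoor/concentrate-fed on the right. Indoor/concentrate-fed replicate 2 is the lowest array for all 4 genes of the upper panel, and *LDHB* varies over a range of 0.78, against 0.08 to 0.18 for those 4.

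Other genes of glycogen and glucose metabolism, read at their brightest probe sets, did not pass the threshold either. Beside the genes above, 54 genes of the pathway were listed, and 39 of them had a probe set. The smallest adjusted p from limma at these probe sets was 0.247. Of 6 measured genes of glucose uptake and lactate transport, 5 varied, and 1 was higher and 0 lower at an unadjusted p under 0.05. Of 9 measured genes of glycogen metabolism, 7 varied, with 0 higher and 2 lower. Of 24 measured genes of the remaining glycolytic and linked enzymes, 13 varied, with 1 higher and 1 lower. Among all varying probe sets, 9.23% were higher and 10.7% lower at that unadjusted threshold. The median differences of the varying genes were -0.05, -0.06 and -0.02 for these lists, against -0.0077 over all varying probe sets.

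At the entry of glucose and the exit of lactate, *SLC16A3*, which encodes the lactate exporter MCT4 of glycolytic muscle, had the largest difference of its list. Its lowest, median and highest values were 10.26, 10.44 and 10.93 at pasture, against 8.94, 9.84 and 10.34 on concentrate. All 7 pasture arrays lay above the concentrate median and 4 lay above every concentrate array, so that the groups still overlapped. The means were 10.52 ± 0.27 at pasture, against 9.81 ± 0.50 on concentrate (SD, n = 7 each). The difference of 0.71 (SE 0.21), a 1.64-fold higher value at pasture, did not pass over all probe sets (adjusted p = 0.247 from limma), and its two-sided exact permutation p was 0.00408. The third probe set of the gene, near the bottom of the scale, had the same direction at 0.26 (SE 0.08, adjusted p = 0.272 from limma, exact permutation p = 0.0105), and the second was constant. *SLC16A1*, the lactate and pyruvate carrier MCT1 of oxidative fibres, had the opposite sign at -0.24 (SE 0.17, exact permutation p = 0.202), and the basal glucose transporter *SLC2A1* differed by -0.10 (SE 0.11).

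In glycogen metabolism, *PPP1R3C* differed most. It encodes a subunit that brings protein phosphatase 1 to glycogen and thereby favours glycogen synthesis over breakdown. Its lowest, median and highest values were 11.71, 12.24 and 12.49 at pasture, against 12.34, 12.54 and 12.91 on concentrate. Of the 7 pasture arrays, 6 lay below every concentrate array, and the groups overlapped through outdoor/pasture-fed replicate 2. Its 3 probe sets were lower at pasture by 0.40 (SE 0.12), 0.67 (SE 0.16) and 0.82 (SE 0.20), the last a 0.565-fold value. None of them passed over all probe sets (adjusted p = 0.247, 0.196 and 0.197 from limma) or among the varying probe sets (adjusted p = 0.105, 0.0692 and 0.0692 from limma), while their two-sided exact permutation p-values were 0.00350, 0.00117 and 0.00175. These probe sets read the same gene and moved together (r of 0.87 to 0.97 after the group means were removed), so that they are not separate evidence. Of the other genes of this list, *GYG1*, the glycogenin that primes new glycogen, differed by -0.06 (SE 0.02, adjusted p = 0.321 from limma, exact permutation p = 0.0192), and *PPP1R3B*, another glycogen-targeting subunit, by 0.21 (SE 0.14).

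Among the remaining enzymes, *FBP2*, the muscle fructose bisphosphatase that runs against phosphofructokinase, was at 12.77 ± 0.23 at pasture, against 12.50 ± 0.10 on concentrate (SD, n = 7 each). It was higher by 0.26 at pasture (SE 0.09, adjusted p = 0.299 from limma, exact permutation p = 0.0210), and 5 of the 7 pasture arrays lay above every concentrate array. *TPI1*, which interconverts the triose phosphates between aldolase and *GAPDH*, was at 12.77 ± 0.05 at pasture, against 12.85 ± 0.05 on concentrate (SD, n = 7 each), a difference of -0.08 (SE 0.03, adjusted p = 0.321 from limma, exact permutation p = 0.0221). The broadly expressed enolase *ENO1* differed by -0.25 (SE 0.14, exact permutation p = 0.0956).

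**Figure D5:**
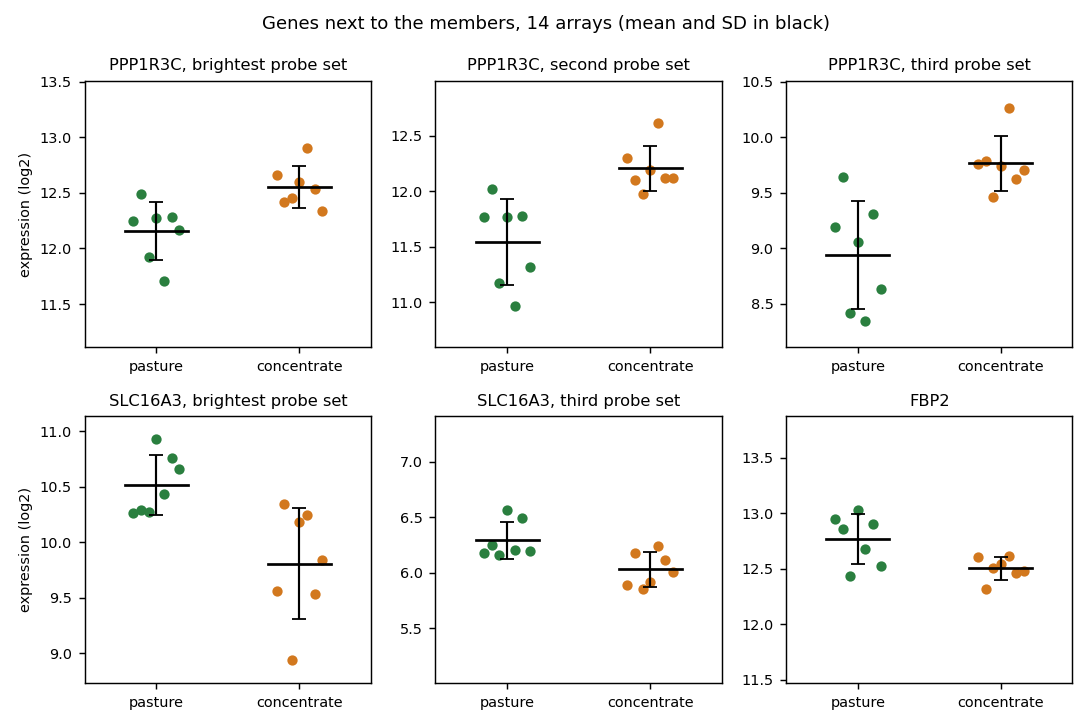
Log2 expression (vertical axes, each spanning 2.4 log2 units) of 3 probe sets of *PPP1R3C*, the 2 varying probe sets of *SLC16A3* and *FBP2* on the outdoor/pasture-fed arrays (green, left) and the indoor/concentrate-fed arrays (orange, right), 1 point per animal, n = 7 each, with the mean (bar) and SD (whiskers). *PPP1R3C* is lower and *SLC16A3* and *FBP2* are higher at pasture by their means, and the groups overlap in every panel.

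Markers of fibre type and of other cells were read beside these genes. Among all varying probe sets, 47.5% had a higher value at pasture. At an unadjusted p under 0.05 in limma, 9.23% of them were higher and 10.7% lower. Of 9 measured genes of slow fibres, 7 varied, all with higher values at pasture (0.03 to 0.29), and 1 of them, the slow sarcoplasmic calcium pump *ATP2A2*, reached an unadjusted p under 0.05 (0.16, SE 0.06, adjusted p = 0.341 from limma). Of 8 measured genes of fast fibres, 5 varied, with 1 higher and 3 lower at an unadjusted p under 0.05. The higher one was *MYH1*, a fast myosin heavy chain, at 0.14 (SE 0.03, adjusted p = 0.148 from limma). It is uncertain, since *MYH1* belongs to a family of near-identical genes and its 8 probe sets differ in sign. *TNNC1*, the slow troponin C, differed by 0.03 (SE 0.02), and *TNNC2*, the fast troponin C, by -0.01 (SE 0.0044). The *TNNC2* difference became 2.70e-15 when the arrays were quantile normalised once more. *TNNC2* had the highest mean of all probe sets, and that step gives the brightest probe set of each array the same value. The 2.70e-15 was therefore fixed by rank and says nothing about the gene. The mean of the slow list on single arrays ran from 13.19 to 13.36 at pasture and from 12.72 to 13.32 on concentrate, and that of the fast list from 13.79 to 13.84 at pasture and from 13.78 to 13.84 on concentrate. All 5 varying endothelial markers were higher at pasture, by 0.23 to 0.59, each at an unadjusted p under 0.05. Of these markers, 0 passed an adjusted p of 0.05 in limma, over all probe sets or among the varying ones. Their smallest adjusted p over all probe sets was 0.147. For 1 marker, pasture and concentrate values were fully separate, as they were for 0.811% of all varying probe sets. The mean of the 6 endothelial markers on single arrays ran from 8.45 to 8.80 at pasture and from 8.03 to 8.46 on concentrate, and *VWF*, 1 of them, was constant near the bottom of the scale. All 6 varying leukocyte markers had higher values too, with 0 of them below an unadjusted p of 0.05, and of 5 adipocyte markers, all varying, 1 was higher at that threshold and 4 had lower values. The 6 fibroblast markers went both ways, with 3 higher and 3 lower values, as did the 5 smooth muscle markers, with 3 higher and 2 lower, and 0 of either list had an unadjusted p under 0.05. After the group means were removed, *LDHB* had r = 0.56 (permutation p = 0.0576, adjusted p = 0.0988) and rho = 0.64 (permutation p = 0.0166, adjusted p = 0.0567) with the mean of the varying slow fibre genes over the 14 arrays. Without the 2 arrays farthest from the *LDHB* median, r was 0.54. With the mean of the varying fast fibre genes r was 0.20 (permutation p = 0.517, adjusted p = 0.517) and rho 0.06 (permutation p = 0.850, adjusted p = 0.850). The part of fibre type or of endothelium in the values of *LDHB*, *SLC16A3* and *PPP1R3C* was not tested.

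The genes whose values were most like those of 3 pathway genes were sought among the varying probe sets with a single symbol, by Pearson's r over the 14 arrays after the group means were removed, as a description. Each search compared 5934 to 5936 probe sets, so that the r below are the highest of many and were not tested. For *PYGM* they were *RTN2* (r = 0.91, rho = 0.83), *SAE1* (r = 0.91, rho = 0.78) and *MPDZ* (r = 0.90, rho = 0.82), and without indoor/concentrate-fed replicate 2 their r was 0.84, 0.85 and 0.78. For *LDHA* they were *GSTA4* (r = 0.91, rho = 0.78), *NCAPD2* (r = 0.90, rho = 0.76) and *GSTA2* (r = 0.89, rho = 0.67). The *LDHA* likeness rests in good part on indoor/concentrate-fed replicate 2, since without it r was 0.57, 0.65 and 0.54. For *LDHB* they were *MRPS28* (r = 0.84, rho = 0.81), *NEIL2* (r = 0.83, rho = 0.80) and *EPAS1* (r = 0.80, rho = 0.79), with r of 0.83, 0.83 and 0.86 without that array. None of these 9 differed between the groups at an adjusted p of 0.05 in limma.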

How the data were processed

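The deposited values of the 14 arrays are log2 expression values, which the authors made by quantile normalisation and FARMS summarisation; no further normalisation was applied. The 112 control probe sets were left out. Of the others, 13292 have 1 gene symbol, 86 several and 10638 none. The gene identifiers of the 9 measured genes have unchanged symbols in RefSeq. Without probe-level values the authors' selection of informative probe sets could not be repeated. The main fit and its adjusted p-values therefore cover all 24016 probe sets, of which 4 passed. The SD threshold of 0.01 marks varying probe sets and served as an alternative filter, under which 33 passed.

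Groups were compared with lmFit and eBayes (limma 3.58.1, R 4.3.3; prior degrees of freedom 0.214 over all and 2.02 over varying probe sets), with Benjamini-Hochberg adjustment. Two-sided exact permutation tests used all 3432 assignments of 14 arrays to 7 and 7, and relations used 100000 permutations within groups. The fit was tested on simulated data. The number of arrays limits the precision.

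Genes named are the 10 pathway genes, the 3 with the smallest p of each further pathway list where none passed, those most like *PYGM*, *LDHA* and *LDHB*, and the 2 with the smallest p of each fibre list. Genes and lists were chosen with earlier results of these data known. Alternatives were a replicate block, priors, filters, other normalisations, array weights, other choices of probe set and leaving out each array. No sequences are printed.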

Additional observations from a re-analysis of the deposited data

Results flagged for a closer look

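In 54 groups of 7 arrays (26 probe sets and LDHB minus LDHA), 5 held an array that stood apart from the rest of its group by Dixon's test, which is 9.26%, where chance gives about 1 in 20. Indoor/concentrate-fed replicate 2 was lowest for *PGM1*, at 13.348 with the next array at 13.45, and for *LDHA*, at 13.593 with the next at 13.652. Indoor/concentrate-fed replicate 5 was highest for the third probe set of *PPP1R3C*, at 10.267 with the next at 9.7877. Outdoor/pasture-fed replicate 5 was highest for *ENO1*, at 10.397 with the next at 9.817. Indoor/concentrate-fed replicate 3 was lowest for *TNNC1*, at 14.214 with the next at 14.296.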

How the results depend on the processing

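Of the 5 pathway genes that varied at the brightest probe set, 0 passed an adjusted p of 0.05 in limma under any alternative, including each array left out in turn. The count over all probe sets, 4, became 33 and 37 for an SD above 0.01 and above 0.1, 7 for means at or above the 25th percentile, 7 after centring on array medians, and 1 to 8 with 1 array left out. The count of varying pathway genes higher at pasture, 1, became 3 with the mean of all probe sets of a gene or the probe set of largest SD, and 1 to 4 with 1 array left out. With these choices of probe set *PGM1* differed by 0.0273 and 0.0586 and *LDHA* by 0.0366 and 0.0556, against -0.0040 and -0.0095, so that the sign follows the probe set. *TNNC2* turned to 2.70e-15 after a second quantile normalisation, a value fixed by its rank as the brightest probe set. For an SD above 0.1 the median difference was 0.13, since *LDHB* alone was left. Leaving out 1 array gave -0.0228 to 0.0033 for *PYGM*, -0.0252 to 0.0095 for *PGM1* (second probe set -0.0210 to 0.12), -0.0244 to 0.0055 for *PKM*, -0.0162 to 0.0131 and -0.0907 to 0.0016 for the second and the third probe sets of *PFKM*, and -0.0043 to 0.11 for the third of *LDHA*. The directions of these genes are therefore not settled. *LDHB* (0.0780 to 0.21) and LDHB minus LDHA (0.0838 to 0.22) stayed positive, and the latter largely repeats the former. Constant probe sets gave no value under the SD filters, and the LDHB minus LDHA difference has no p with array weights. Of 234 values of named genes under the other settings, 5 changed sign, that of *TNNC2* among them, and 0 came past the threshold.

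The replicate number as a block gave 2 calls over all probe sets against 4, and changed no other call. Arrays of 1 number had deviations from their group means that correlated at -0.18 to 0.24, over 0.1 for 2 of 7 numbers. Of 14 arrays, 3 correlated best with their own number. Whether arrays of 1 number share more than a number was not tested. The correlations without indoor/concentrate-fed replicate 2 were added after the data were seen. Exact permutation p-values of single genes with an array left out were worked out for that array alone. With 7 arrays a group, a difference of the size seen for *LDHB* was not detectable over its spread, and most of the pathway lies where the SD of varying probe sets is smallest.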
